A study of Mus musculus with 8 samples.

Results

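Genes for the salt-inducible kinases (Sik1, Sik2 and Sik3) and for 5 cyclic nucleotide phosphodiesterases (Pde4a, Pde4b, Pde4d, Pde1a and Pde2a) were followed. The tissue was medial prefrontal cortex of mice from a study of methamphetamine place preference. The members were taken by gene name from the deposited table of read counts, which lists 54532 genes, and all 8 were found once and passed the filter on low counts that left 16745 tested genes. The study holds 8 RNA-seq libraries from adult male C57BL/6 mice, 4 labelled retrieval and 4 labelled non-retrieval. Each was made from a pool of 2 to 3 animals. By the labels, cortex was collected 1 h after the end of the conditioned place preference (CPP) test. In this test an animal that has received a drug in one compartment is returned to the apparatus, and its preference for that compartment is read as memory of the drug. What was done with the non-retrieval animals, and whether they took the test, is not described in the labels. Exposure to the apparatus therefore cannot be told apart from retrieval. Library totals ran from 25013503 to 29547978 counts, and every member had at least 183 reads in every library.

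Cyclic AMP is made by adenylyl cyclases, activates protein kinase A (PKA), and is hydrolysed by phosphodiesterases. PKA phosphorylates the transcription factor CREB, and it also phosphorylates the SIKs, which then bind 14-3-3 proteins and lose access to their substrates. Active SIKs phosphorylate the CREB coactivators of the CRTC family and the class IIa histone deacetylases and hold both in the cytoplasm. Sik1 is itself a CREB target gene, so its induction is known as a feedback on CRTC and CREB activity, and in neurons it is known to follow depolarisation. The PDE4 enzymes are specific for cAMP, PDE1A is activated by calcium and calmodulin, and PDE2A is activated by cGMP. Inhibitors of PDE4 are known to raise neuronal cAMP signalling and to alter memory in rodents.

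The 2 groups were set against each other to find transcripts that differ in this cortex around retrieval of the drug memory. Sik1 and Sik2 were higher in retrieval, about 2.97-fold and 1.81-fold, whereas Sik3 and the 5 phosphodiesterase genes did not pass the test. Counts were compared with edgeR's quasi-likelihood test, and a call needs a Benjamini-Hochberg adjusted p under 0.05 over all tested genes. Of the 8 members, 2 were called higher, where 3.67% of all tested genes were, and none was called lower, where 0.902% of all tested genes were (4.57% in either direction). An unadjusted p under 0.05 was reached by 6 of the 8 members, against 18.5% of all tested genes, and those 6 include differences of both signs. DESeq2 likewise called 2 members higher and 0 lower, where it called 4.89% of all genes higher and 1.39% lower. Limma-voom added 1 lower call to 2 higher ones, with 6.63% of all genes called higher and 3.04% lower, so that its lower calls were more frequent throughout. The members were chosen with earlier results of these data known, so these counts are not independent evidence.

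**Figure D1:**
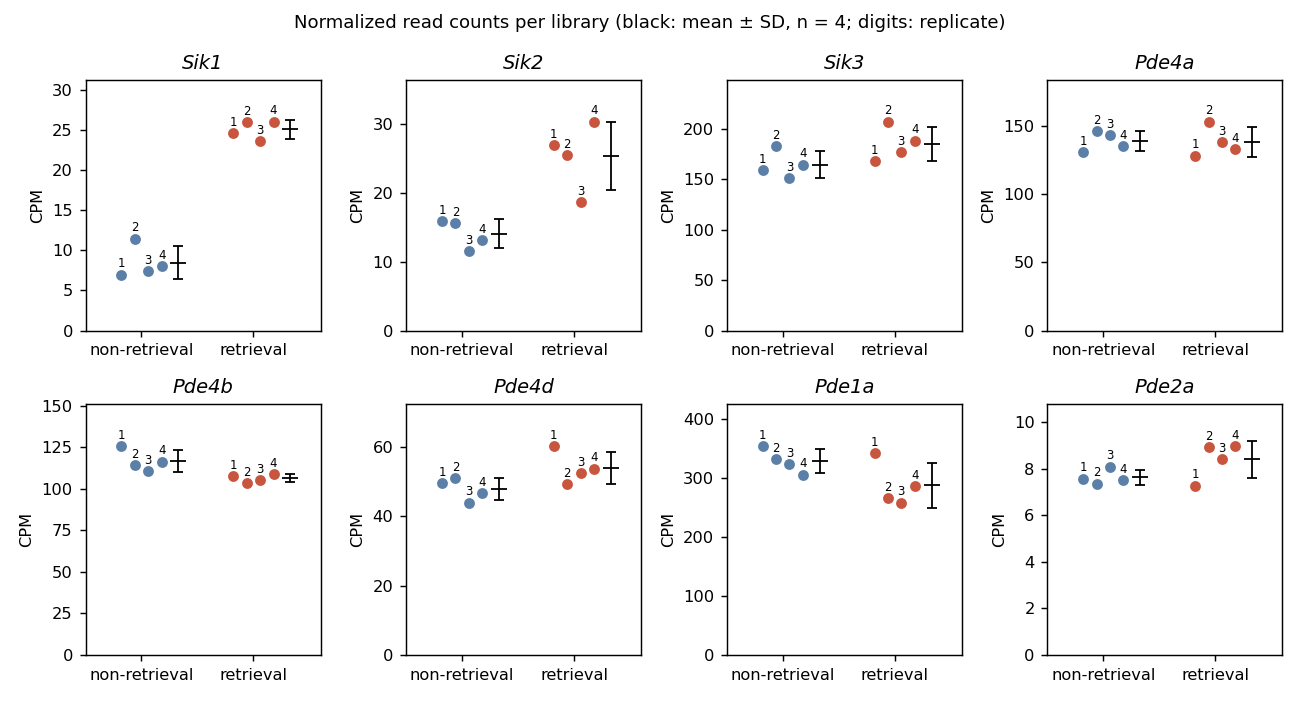
Read counts scaled to library size (CPM, y axis from 0) of the 8 members in each library, with the mean ± SD of each group in black (n = 4) and the replicate number beside each point. For Sik1 the retrieval libraries lie between 23.7 and 26.1 CPM and the non-retrieval libraries between 6.97 and 11.5 CPM, while the groups overlap for Sik3, Pde4a, Pde4d, Pde1a and Pde2a.

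Sik1 (ENSMUSG00000024042) encodes the stimulus-induced member of the kinase family and lies on chromosome 17 from 31844248 to 31855792 on the minus strand of GRCm38. Its counts were 198, 285, 208 and 239 reads in non-retrieval replicates 1 to 4 and 731, 733, 618 and 720 reads in retrieval replicates 1 to 4. Scaled to library size, these are 6.97, 11.5, 7.41 and 8.04 CPM for the non-retrieval libraries and 24.6, 26.0, 23.7 and 26.1 CPM for the retrieval libraries. The lowest retrieval library thus stood above the highest non-retrieval library by more than the whole range of either group, and the spread was wider in non-retrieval (coefficient of variation 24.1%) than in retrieval (4.65%). The means were 8.47 ± 2.04 and 25.1 ± 1.17 CPM (SD over 4 libraries), which is a log2 fold change of 1.57 (SE 0.12, 95% interval 1.31 to 1.83; edgeR adjusted p = 6.36e-07). By log2 fold change, counted from the largest rise, Sik1 was number 22 of all tested genes. The call was kept in all 18 alternative analyses, with log2 fold changes of 1.35 to 1.75.

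Sik2 (ENSMUSG00000037112), which encodes the family member best known for restraining CRTC activity in neurons, lies on chromosome 9 from 50892801 to 51009073 on the minus strand. It stood at 16.0, 15.7, 11.6 and 13.1 CPM in non-retrieval replicates 1 to 4 and at 27.0, 25.6, 18.7 and 30.4 CPM in retrieval replicates 1 to 4. The groups did not overlap, with the third replicate lowest in each group. The means were 14.1 ± 2.10 and 25.4 ± 4.91 CPM (SD over 4 libraries), which is a log2 fold change of 0.85 (SE 0.13, 95% interval 0.58 to 1.13; edgeR adjusted p = 0.00112). The call held with any 1 library left out (log2 fold changes 0.76 to 0.98, edgeR adjusted p at most 0.00940) and ended with oligodendrocyte marker level as a covariate, as given further on.

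Part of the Sik2 model shares its genomic bases with another gene. In GENCODE M21, the annotation used here for exons, 1429 of its 9539 exonic bases (14.98%) overlap exons of Ppp2r1b, a scaffold subunit of protein phosphatase 2A on the opposite strand. No source used here gives the strand setting of the counting. If strand was ignored, reads of the pair within that stretch cannot be told apart. If such reads were left out of both genes, the length-scaled level and share of Sik2 given below, which use all 9539 bases, are too low. Ppp2r1b was itself higher in retrieval, with 432 to 526 reads in non-retrieval and 560 to 679 reads in retrieval (log2 fold change 0.36, SE 0.08; edgeR adjusted p = 0.0171), a smaller difference than that of Sik2. No exonic base of Sik1 or Sik3 was shared with another gene in that annotation.

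Sik3 (ENSMUSG00000034135), the kinase known for its part in sleep need and the most abundant of the 3 by length-scaled level, lies on chromosome 9 from 46012820 to 46224194 on the plus strand. It stood at 159, 183, 151 and 165 CPM in non-retrieval replicates 1 to 4 and at 168, 207, 177 and 188 CPM in retrieval replicates 1 to 4. The groups overlapped, because non-retrieval replicate 2 lay above 2 of the retrieval libraries. The log2 fold change was 0.17 (SE 0.08, 95% interval 0.01 to 0.33; edgeR adjusted p = 0.236), so that the interval excludes a rise of the size seen for Sik1 or Sik2. With replicate number as a block Sik3 was called higher (0.17, edgeR adjusted p = 0.0241), which was so in 1 of 18 alternatives. Sik3 was at its highest in retrieval replicate 2, which also held the most RNA of striatal projection neuron and oligodendrocyte markers, described below. A link between these levels was not tested.

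**Figure D2:**
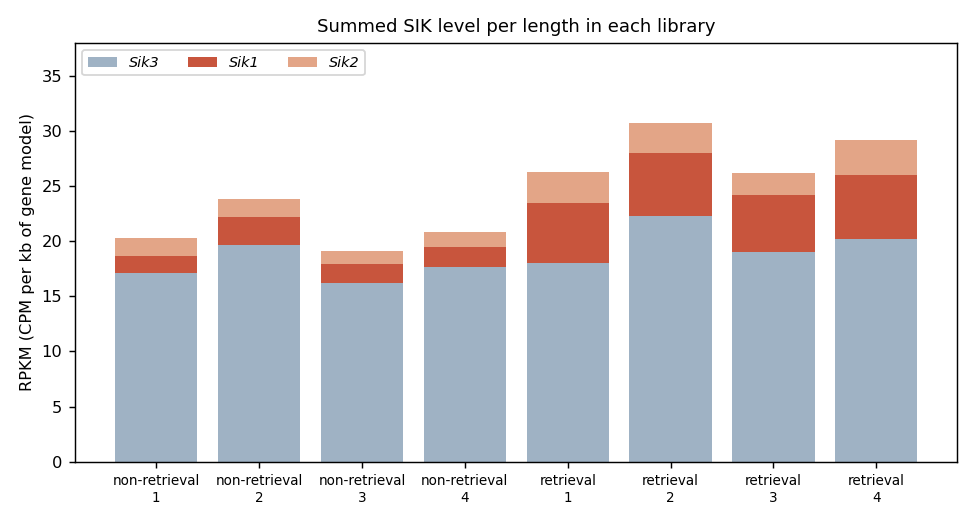
Length-scaled level (RPKM, CPM per kilobase of gene model) of Sik3, Sik1 and Sik2 stacked for each library (x axis: group and replicate number). The stacks reach 19.1 to 23.8 RPKM in non-retrieval and 26.2 to 30.7 RPKM in retrieval, with a wider Sik1 segment in every retrieval library.

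Levels of different genes were compared per kilobase of gene model. Summed over the family, the SIK level was 20.3, 23.8, 19.1 and 20.8 RPKM in non-retrieval replicates 1 to 4 and 26.3, 30.7, 26.2 and 29.2 RPKM in retrieval replicates 1 to 4. Sik3 made up 82.4% to 85.0% of that sum in non-retrieval and 68.5% to 72.5% in retrieval. The share of Sik1 was 7.61% to 10.7% in non-retrieval and 18.8% to 20.7% in retrieval, and that of Sik2 was 6.35% to 8.23% against 7.49% to 10.9%. Sik1 and Sik2 thus had low and similar levels in non-retrieval (1.88 ± 0.45 and 1.48 ± 0.22 RPKM, SD, n = 4, with overlapping libraries). In retrieval Sik1 (5.56 ± 0.26 RPKM, SD, n = 4) lay above Sik2 (2.67 ± 0.51 RPKM, SD, n = 4) in every library. These shares rest on the length of each gene model, and that of Sik1 is 4511 bases in the deposited table and 5133 bases in GENCODE M21, with which its share is 6.75% to 9.49% in non-retrieval and 16.9% to 18.7% in retrieval.

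The promoters of Sik2 and Sik3 were read from RefSeq (GRCm38.p6) because these genes, both on chromosome 9, differed in their calls, and are shown for the 250 bases before the start of transcription, 5′ to 3′ on the gene's own strand. Promoter windows were matched for 7 of the 8 members, 19 windows in all, and not for Sik1. Capitals mark each TGACG or its reverse complement CGTCA, the core of the cAMP response element that CREB binds.
Sik2, chr9:51009074-51009323, minus strand: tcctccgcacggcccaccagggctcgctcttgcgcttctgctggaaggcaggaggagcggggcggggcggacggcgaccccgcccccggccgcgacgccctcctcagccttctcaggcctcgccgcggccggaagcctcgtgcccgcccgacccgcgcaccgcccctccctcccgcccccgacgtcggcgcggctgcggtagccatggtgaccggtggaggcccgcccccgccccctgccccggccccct
Sik3, chr9:46012570-46012819, plus strand: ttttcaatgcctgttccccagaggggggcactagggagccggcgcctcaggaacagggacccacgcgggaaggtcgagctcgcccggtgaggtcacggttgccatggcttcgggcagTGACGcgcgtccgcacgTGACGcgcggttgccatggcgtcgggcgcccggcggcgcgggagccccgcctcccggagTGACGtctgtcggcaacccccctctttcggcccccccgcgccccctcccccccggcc
The window of Sik3 holds 3 such cores, which begin 133, 116 and 57 bases before the start site, and the window of Sik2 holds none. Whether these cores bear on the calls was not tested. Among the other members, 1 core each was found in 1 of 4 windows of Pde4b, 1 of 3 of Pde4a and 1 of 4 of Pde1a, and none in the windows of Pde4d and Pde2a. Of all 32851 promoter windows of this length, 17.8% hold the core and 1.55% the full palindrome TGACGTCA, which no member's window holds. A match is a stretch of letters and not a measured binding site, and these windows say nothing of elements elsewhere in the genes.

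Within the PDE4 family, the 3 members kept nearly the same summed level while their individual differences were small and of both signs. The sum of Pde4a, Pde4b and Pde4d was 32.6 to 34.2 RPKM in non-retrieval and 31.975 to 33.9 RPKM in retrieval. Pde4a contributed 51.6% to 57.0% of it in non-retrieval and 52.4% to 59.0% in retrieval, Pde4b 31.7% to 35.9% against 28.9% to 31.98%, and Pde4d 11.1% to 12.4% against 12.1% to 15.7%. None of the 3 was called by edgeR.

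Pde4a (ENSMUSG00000032177), on chromosome 9 from 21165714 to 21213248 on the plus strand, stood at 131, 146, 143 and 135 CPM in non-retrieval replicates 1 to 4. In retrieval it stood at 128, 153, 138 and 133 CPM, a range that encloses that of non-retrieval. Its log2 fold change was -0.01 (SE 0.07, 95% interval -0.15 to 0.13; edgeR adjusted p = 0.962), the smallest difference among the members.

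Pde4b (ENSMUSG00000028525), the PDE4 gene most often linked to psychiatric illness, lies on chromosome 4 from 102087543 to 102607259 on the plus strand. It stood at 126, 114, 110 and 116 CPM in non-retrieval replicates 1 to 4 and at 108, 103, 105 and 109 CPM in retrieval replicates 1 to 4. Every retrieval library was below every non-retrieval library, by a margin of 110 against 109 CPM at the nearest, which 4.53% of tested genes showed in this direction, while Sik1 and Sik2 were among the 6.59% whose retrieval libraries were all higher. The means were 117 ± 6.53 and 106 ± 2.35 CPM (SD over 4 libraries), which is a log2 fold change of -0.14 (SE 0.06, 95% interval -0.26 to -0.01; edgeR adjusted p = 0.235). With an offset for gene length Pde4b was called lower (-0.22, edgeR adjusted p = 0.0477), and likewise with an offset for length and GC content (-0.21, edgeR adjusted p = 0.0110).

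Pde4d (ENSMUSG00000021699), which spans chromosome 13 from 108449948 to 109953461 on the plus strand, encodes a large set of long and short enzyme isoforms that the table does not separate. It stood at 49.5, 51.0, 43.9 and 46.7 CPM in non-retrieval replicates 1 to 4 and at 60.2, 49.3, 52.5 and 53.7 CPM in retrieval replicates 1 to 4. Retrieval replicate 1 was the highest, and retrieval replicate 2 lay within the non-retrieval range. The log2 fold change was 0.18 (SE 0.07, 95% interval 0.02 to 0.33; edgeR adjusted p = 0.212).

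Pde1a (ENSMUSG00000059173) encodes a calcium and calmodulin dependent enzyme that hydrolyses both cAMP and cGMP and lies on chromosome 2 from 79834453 to 80129458 on the minus strand. It was the most abundant member per kilobase, at 54.6 ± 3.36 RPKM in non-retrieval and 47.8 ± 6.32 RPKM in retrieval (SD, n = 4). It stood at 354, 331, 323 and 305 CPM in non-retrieval replicates 1 to 4 and at 342, 265, 258 and 285 CPM in retrieval replicates 1 to 4. Retrieval replicates 2, 3 and 4 were below every non-retrieval library, and retrieval replicate 1 was above all of them except replicate 1. The log2 fold change was -0.19 (SE 0.08, 95% interval -0.36 to -0.02; edgeR adjusted p = 0.215). Without retrieval replicate 1 it was -0.28 and called (edgeR adjusted p = 0.0110). Limma-voom, which gives libraries quality weights, also called it lower (-0.22, adjusted p = 0.0315), as did the length and GC offset (-0.19, edgeR adjusted p = 0.0379). With replicate number as a block Pde1a was called lower too (-0.20, edgeR adjusted p = 0.0183). These were 4 of its 18 alternatives.

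Pde2a (ENSMUSG00000110195), whose enzyme links cGMP to the breakdown of cAMP, lies on chromosome 7 from 101421691 to 101512827 on the plus strand and had the lowest level of the 8, at 1.24 ± 0.05 RPKM in non-retrieval and 1.37 ± 0.13 RPKM in retrieval (SD, n = 4). That level may understate the gene. In GENCODE M21, 3955 of its 6149 exonic bases (64.3%) are also exons of Gm45837, a gene model on the same strand, and the table gives Gm45837 only 2 reads summed over the 8 libraries. Reads of the shared exons are thus all but absent from Gm45837, and whether any were given to Pde2a is not stated in these sources. If they were left out of both, the values of Pde2a come from 2194 bases. It stood at 7.57, 7.36, 8.09 and 7.502 CPM in non-retrieval replicates 1 to 4 and at 7.27, 8.94, 8.43 and 8.98 CPM in retrieval replicates 1 to 4. The groups overlapped through retrieval replicate 1, the lowest of all libraries, and the log2 fold change was 0.14 (SE 0.10, 95% interval -0.08 to 0.35; edgeR adjusted p = 0.506).

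By length-scaled level, the order in non-retrieval was Pde1a, Pde4a, Sik3, Pde4b, Pde4d, Sik1, Sik2 and Pde2a. Libraries of neighbouring genes overlapped for Pde4a and Sik3 (17.1 to 19.1 and 16.3 to 19.7 RPKM), for Sik1 and Sik2, and for Sik2 and Pde2a (1.21 to 1.67 and 1.197 to 1.32 RPKM), so these neighbours cannot be ordered. The place of Pde2a rests on all 6149 bases of its model. It may be too low if reads of the shared exons were left out. In retrieval Sik1 (5.25 to 5.78 RPKM) stood above Pde4d (4.11 to 5.02 RPKM), which it was below in every non-retrieval library (1.55 to 2.54 against 3.65 to 4.25 RPKM). The retrieval order depends on the gene model: per kilobase of the GENCODE M21 exons Sik1 stood at 4.61 to 5.08 RPKM, which overlaps Pde4d, and in retrieval replicate 1 it was below it (4.79 against 5.02 RPKM).

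**Figure D3:**
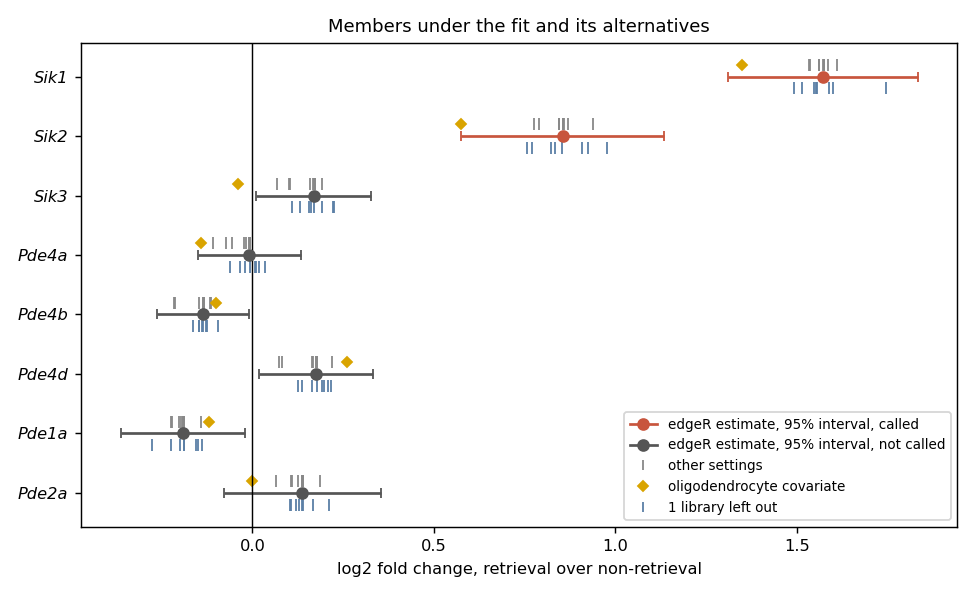
Log2 fold change (retrieval over non-retrieval) of each member with its 95% interval from edgeR, the values with 1 library left out (blue ticks), under other settings (grey ticks) and with oligodendrocyte marker level as a covariate (diamonds). Sik1 and Sik2 lie right of 0 throughout, and the point values of the other members stay within 0.30 of 0, while some of their intervals reach further.

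Of 8 lists of cell type markers, that of mature oligodendrocytes was the only one with genes called higher. Summed over 12 markers of excitatory neurons and cortical layers, the level was 6054 to 6569 CPM in non-retrieval and 5740 to 6754 CPM in retrieval, with no marker at 0 in any library. The sum of 12 mature oligodendrocyte markers was 3444 to 4062 CPM in non-retrieval and 4176 to 6051 CPM in retrieval, the groups did not overlap, and 7 of the 12 were called higher. No gene was called among the markers of astrocytes, microglia, endothelium and choroid plexus, whose summed levels overlapped between the groups. For choroid plexus only 2 of the 8 markers passed the filter on low counts and were tested. Of 8 markers of GABAergic interneurons 1 was called lower, Pvalb. With the mean log2 CPM of the mature oligodendrocyte list as a covariate, Sik1 kept its call (log2 fold change 1.35, SE 0.17; edgeR adjusted p = 0.000186). Sik2 did not (0.57, SE 0.19; edgeR adjusted p = 0.219), and Sik3 stood at -0.04. In that fit 120 genes were called in place of 766, which is 0.657% of all tested genes higher and 0.0597% lower. The covariate separates the groups, and the standard errors of both kinases were larger with it. The sum of 12 striatal projection neuron markers was 452 CPM in retrieval replicate 2 against 308 to 351 CPM in the other libraries, and with that list as a covariate Sik1 (1.53) and Sik2 (0.87) kept their calls. In bulk tissue, a change in the number of cells of a type and a change of RNA per cell cannot be told apart.

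Across all tested genes, 615 were called higher and 151 lower, 80.3% of the calls being higher, and the median log2 fold change was -0.01. That share was 68.6% with the length offset and 53.9% with the length and GC offset, which called 4.40% of all genes higher and 3.76% lower. The 766 calls became 331 and 330 when replicate 3 or 4 of non-retrieval was dropped in turn, 420 and 397 when those of retrieval were, and 1360 with replicate 1 of retrieval dropped.

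The genes whose levels over the 8 libraries were most like those of the called members were found among 13240 protein-coding genes with a mean of at least 1 CPM, by Pearson's r of log2 CPM. For Sik1 they were Trib1, a pseudokinase gene (r = 0.998), Irf2bp2, a transcriptional corepressor gene (0.996), and the clock gene Per1 (0.991). After each library was set against its own group's mean, r was 0.96, 0.95 and 0.84 in the same order. Trib1 went from 26.6 to 52.8 CPM on average, and Per1 from 88.4 to 185 CPM. For Sik2 they were the kinase gene Map3k13 (0.992), Heatr5b (0.981) and Spred2, an inhibitor of Ras signalling (0.977), with 0.97, 0.94 and 0.90 after the same step. These values describe likeness over libraries that share the group difference, and they were picked as the highest of many.

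Around the members, 11 lists of 135 genes of cAMP and cGMP signalling were read, of which 125 genes were tested. In all, 15 were called higher and none lower, and 11 of the 15 belong to a list of known CREB target genes (the median log2 fold change over all 125 was 0.05). In the other 10 lists 4 of 108 genes were called higher (3.70%), close to the 3.67% of all tested genes, and 19.4% had an unadjusted p under 0.05, against 18.5% of all tested genes. Of the 18 known CREB targets tested, 11 rose and 7 did not pass (median 0.72). Fos, an AP-1 subunit, rose most (2.21), and Fosb (1.88), Nr4a3 (1.78), Egr1 (1.72), Nr4a2 (1.65), Nr4a1 (1.47), Junb (1.24) and Per1 (1.07) rose by at least 1 on the log2 scale. Dusp1, a phosphatase of MAP kinases (0.79), Bdnf, a neurotrophin (0.65), and Pcsk1, a prohormone convertase (0.51), rose less. Sik1 (1.57) lies within the range of these genes. Many of these targets were known to be changed in these libraries when the list was drawn up, so their count is not independent evidence.

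The substrates of the SIKs, 3 CRTC and 4 class IIa deacetylase genes, held no call in edgeR. An unadjusted p under 0.05 was reached by 3 of the 7, against 18.5% of all tested genes (median 0.16). DESeq2 called 3 higher and limma-voom 4, tools that called 4.89% and 6.63% of all genes higher. None was called with the length and GC offset or with the oligodendrocyte covariate. Crtc3 had the smallest p, at 14.5 ± 1.16 CPM without and 17.9 ± 0.99 CPM with retrieval (SD, n = 4) and a log2 fold change of 0.31 (SE 0.09; edgeR adjusted p = 0.0524). It was called without non-retrieval replicate 2 (edgeR adjusted p = 0.0466) and without retrieval replicate 1 (edgeR adjusted p = 0.0249). With replicate number as a block Crtc3 was called too (edgeR adjusted p = 0.0209). Its log2 fold change was 0.20 with the length and GC offset and 0.15 with the oligodendrocyte covariate (edgeR adjusted p = 0.114 and 0.669), and with any other library left out it was not called (edgeR adjusted p of 0.0970 to 0.176). Of 17 genes for LKB1, the master kinase that activates SIKs, its partners and related AMPK-family kinases, only Nuak1 rose, with means of 112 ± 6.20 and 142 ± 7.27 CPM (SD over 4 libraries) and a log2 fold change of 0.35 (SE 0.06; edgeR adjusted p = 0.00440), and 16 did not pass (median 0.00132). Stk11, which encodes LKB1, stood at 91.9 and 91.4 CPM.

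Of 14 other phosphodiesterase genes tested edgeR called none, and 2 reached an unadjusted p under 0.05, against 18.5% of all tested genes (median 0.01). DESeq2 and limma-voom each called 1 higher, where they called 4.89% and 6.63% of all tested genes higher. Pde8a, which encodes a cAMP-specific enzyme of high affinity, had the smallest p, with 15.6 ± 1.21 CPM without and 19.4 ± 2.13 CPM with retrieval (SD over 4 libraries) and a log2 fold change of 0.32 (SE 0.09; edgeR adjusted p = 0.0704, and 0.0152 without retrieval replicate 1). With any other library left out the edgeR adjusted p was 0.0802 to 0.208, and with the oligodendrocyte covariate the log2 fold change was 0.05 (edgeR adjusted p = 0.907). Pde8a was called with replicate number as a block (edgeR adjusted p = 0.0202) and with the length and GC offset (edgeR adjusted p = 0.0381). It was also called without the filter on low counts (edgeR adjusted p = 0.0355), and in 6 of its 18 alternatives in all. Among 7 partner proteins of PDE4 none was called by edgeR, DESeq2 or limma-voom. An unadjusted p under 0.05 was reached by 1 of the 7, against 18.5% of all tested genes. It was the anchoring protein gene Pde4dip (0.14, edgeR adjusted p = 0.173, and -0.02 with the length and GC offset).

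In the 4 lists for cAMP synthesis, PKA, its anchoring and other effectors, 1 of 44 genes was called (2.27%, against 4.57% of all tested genes) and 15.9% had an unadjusted p under 0.05, no more than the 18.5% of all tested genes. Of 17 adenylyl cyclase and G protein alpha subunit genes, Gnai3, an inhibitory alpha subunit, rose (0.35, SE 0.08; edgeR adjusted p = 0.0178) and 16 did not pass (median 0.07). Leaving out the fourth replicate of either group ended its call, at edgeR adjusted p of 0.0744 (non-retrieval) and 0.0543 (retrieval). Of 9 PKA subunit and inhibitor genes none was called by any of the 3 tools, with 1 at an unadjusted p under 0.05, Prkar2a (0.16, edgeR adjusted p = 0.228). Of 10 anchoring protein genes none was called in edgeR or DESeq2 and 1 was called lower by limma-voom. An unadjusted p under 0.05 was reached by 2, led by Akap13 (0.22, edgeR adjusted p = 0.111, and 0.07 with the length offset). With replicate number as a block Akap13 was called higher (edgeR adjusted p = 0.0322). Of 8 other cAMP effector genes none was called in edgeR or DESeq2 and 1 was called higher by limma-voom. The smallest p among these effectors, 2 of which reached an unadjusted p under 0.05, was that of Rapgef3, an exchange factor activated by cAMP (0.25, edgeR adjusted p = 0.187, and 0.0118 without retrieval replicate 1). With any other library left out its edgeR adjusted p was 0.178 to 0.436, and with the oligodendrocyte covariate its log2 fold change was -0.04. With replicate number as a block Rapgef3 was called higher (edgeR adjusted p = 0.0403).

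Of 8 genes of the CREB family and its coactivators, Ep300, a histone acetyltransferase, rose (0.33, SE 0.08; edgeR adjusted p = 0.0261) and 7 did not pass (median 0.16). Dropping replicate 3 or 4 of non-retrieval ended that call (edgeR adjusted p = 0.100 for each), and so did dropping replicate 3 (0.0539) or 4 (0.0681) of retrieval. With the length offset it was 0.22 and not called (edgeR adjusted p = 0.0733). Of 11 genes of cGMP synthesis, cGMP kinases and calmodulin, Nos1, the neuronal nitric oxide synthase, rose (0.42, SE 0.11; edgeR adjusted p = 0.0352) although its groups overlapped, and 10 did not pass (median -0.09). Any of 6 libraries left out ended its call, namely replicates 1, 3 and 4 of non-retrieval and replicates 2, 3 and 4 of retrieval, at edgeR adjusted p of 0.0561 to 0.141. It was not called with the length offset (0.34, edgeR adjusted p = 0.0641), the length and GC offset (0.29, edgeR adjusted p = 0.0535) or the striatal covariate (0.42, edgeR adjusted p = 0.0575) either. With the oligodendrocyte covariate the calls of Nuak1, Gnai3, Ep300, Bdnf and Nos1 ended, at edgeR adjusted p of 0.0705 to 0.648, while their standard errors grew. The log2 fold change was 0.41 for Gnai3, 0.28 for Ep300, 0.55 for Bdnf and 0.25 for Nuak1, and it fell below the value without the covariate by over 1.5 times for Nos1 alone of these 5 (0.18).

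**Figure D4:**
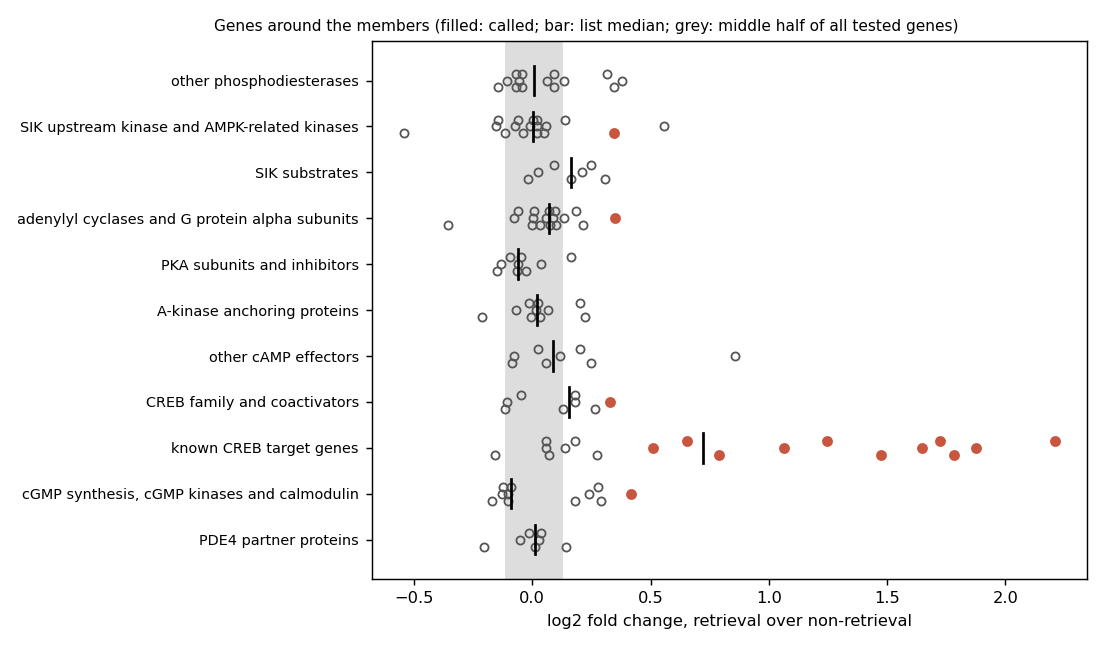
Log2 fold change (retrieval over non-retrieval) of every tested gene of the 11 lists around the members, with called genes filled, list medians as bars, and the middle 50% of all tested genes (-0.11 to 0.12) in grey. Only the known CREB target genes hold more than 1 call, and the medians of that list (0.72), the SIK substrates (0.16) and the CREB family (0.16) lie right of the grey band.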

How the data were processed

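Libraries were made from pooled mice with the RNeasy Micro and NEBNext Ultra RNA kits, per the labels' protocols. The submitters' processing notes list HISAT2 2.0.5, featureCounts 1.5.0-p3 and the build GRCm38, and what the authors deposited is a table of unnormalized counts of reads by gene. No source used here gives the annotation release, the strand setting or the handling of reads in shared exons. Groups come from the treatment labels. No label says that replicate numbers mark shared mice, cages or days. Pools are called biological samples, so the spread is between pools.

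Genes were filtered with filterByExpr, scaled with TMM factors and compared with edgeR 4.0.16 (R 4.3.3), two-sided, in all 8 libraries. Standard errors and 95% intervals come from that test. CPM use the same factors. Alternatives were 2 other scalings, no filter, DESeq2 1.42.0, limma-voom 3.58.1, a replicate block, marker covariates, a gene length offset (loess span 0.5) and each library left out. An offset for length and GC content (from GENCODE M21 transcripts, 99.9% of tested genes) was added after the data were seen. The fit was tested on simulated data. Named genes were the 8 members, every called gene of each list (or the gene of smallest p where none was called) and the 3 genes most like each called member. Members and lists were chosen with earlier results of these data known. Within each group no library was a duplicate of another, and pairs across the groups were not checked for this.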

Additional observations from a re-analysis of the deposited data

Results flagged for a closer look

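Among the 8 members and the 21 genes named from the lists, 58 groups of 4 libraries were checked for a library whose gap to its nearest neighbour exceeded Dixon's 95% limit for 4 values, which chance gives in about 5% of groups. In 2 of the 58 groups a library stood apart, and neither gene was a member. Nuak1 stood at 120.8 CPM in non-retrieval replicate 3, above the 108 to 110 CPM of the other non-retrieval libraries and below all retrieval libraries. Pde4dip stood at 235.2 CPM in retrieval replicate 2, below the 245 to 247 CPM of the other retrieval libraries and above all non-retrieval libraries.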

How the results depend on the processing

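Sik1 kept its direction and call in all 18 alternatives, and Sik2 in 17 of 18, the exception being the oligodendrocyte marker covariate (0.57). With that covariate Sik3 (-0.039), Pde2a (-0.0013) and Rapgef3 (-0.038) changed sign, 1 member was called, and 120 genes were called in all. With the replicate block 1791 genes, 28 pathway genes and 4 members were called, among them Sik3 (0.17) and Pde1a (-0.20). The deviations of same-numbered libraries correlated at 0.22, 0.085, 0.027 and 0.100 for replicates 1 to 4, each of the 8 libraries correlated best with its own number, and the design does not say that numbers pair the samples. Limma-voom called 1619 genes and 25 pathway genes, Pde1a (-0.22) among the members. With the length offset Pde4b passed (-0.22). With the length and GC offset 1365 genes and 4 members were called, Pde4b (-0.21) and Pde1a (-0.19) being the added ones, and Pde4dip changed sign (-0.022). With 1 library left out, the genes called ran from 330 to 1360, the pathway genes called from 12 to 26, Pde4a from -0.062 to 0.034 and Pde1a from -0.28 to -0.14. The cause of these shifts was not tested. The isoforms of the phosphodiesterase genes were not analysed here.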

Other observations

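Pde10a, the phosphodiesterase gene known for its high level in striatal projection neurons, was chosen here after its values were seen. It stood at 96.1 CPM in retrieval replicate 2, against 54.8 to 71.9 CPM in the other 7 libraries. In the same library the striatal receptor gene Drd2 stood at 7.45 CPM, against 1.21 to 2.18 CPM elsewhere, and Adora2a at 12.4 CPM, against 1.94 to 3.43 CPM. Both belong to the list of 12 striatal markers, whose sum was 452 CPM in that library and 308 to 351 CPM in the others. Pde1b, another phosphodiesterase gene known from the striatum, stood at 164 CPM there and at 131 to 150 CPM elsewhere. None of these genes was called (Pde10a log2 fold change 0.09, edgeR adjusted p = 0.725).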
